A study of Mus musculus with 4 samples.

Results

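The 36 genes described here encode enzymes of glycolysis and of glycogen synthesis and breakdown, with a few enzymes that branch from or regulate these routes. They were chosen by gene symbol from the 23482 genes of the deposited table, and all 36 were found. Of these, 18 serve the steps from glucose to lactate, 13 make, break down or regulate glycogen, and 5 sit beside the main route. Their messenger RNA was measured by sequencing in quadriceps, the large thigh muscle, of FVB/N mice aged 6 to 8 weeks. The 2 control libraries came from non-transgenic mice and the 2 transgenic libraries from mice carrying a Thbs1 transgene; Thbs1 encodes thrombospondin-1, a secreted glycoprotein of the extracellular matrix. The sources used here do not give the promoter that drives the transgene, and no other allele or treatment is named for either group. Nothing in the labels ties the 2 libraries of a group to separate animals, so the p-values speak only of the spread between these samples, and that spread may be technical.

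Skeletal muscle stores glucose as glycogen and draws on it during contraction. Calcium released in the fibre activates phosphorylase kinase, phosphorylase kinase activates glycogen phosphorylase, and the glucose phosphate set free runs through glycolysis to pyruvate and lactate. Many of these steps have a muscle isozyme, made at high level in fast fibres, beside one or more isozymes that most other tissues use.

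In RPKM (reads per gene length and library size), Thbs1 was at 8.61 and 12.2 in controls and at 12900 and 15411 in transgenics. Its reads made up 12.0% and 14.4% of all reads in genes of the transgenic libraries, which lowers the RPKM of every other gene there. The libraries held 18815221 to 20053685 reads in genes. A list of 6 skeletal muscle markers summed to 22151 and 22045 RPKM in the controls and to 14917 and 15767 RPKM in the transgenics, and 0 of the 6 passed the test. Of 10 tested macrophage markers 8 rose, and the list of 12 summed to 84.8 and 54.2 RPKM in controls and to 271 and 244 RPKM in transgenics. Of 8 fibroblast markers 2 rose, with sums of 575 and 278 RPKM against 675 and 674 RPKM. No endothelial, smooth muscle, Schwann cell, adipocyte or red cell marker passed the test; 1 of the 6 red cell markers was listed at 0 in all 4 libraries. The first transgenic library stood apart in its adipocyte list, which summed to 608 RPKM there and to 76.6 to 114 RPKM in the other 3 libraries. The second transgenic library stood apart in its slow fibre list, which summed to 63.4 RPKM there and to 453 to 794 RPKM elsewhere. In whole muscle, fewer cells of a type and less RNA per cell cannot be told apart.

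Among the 36 genes, 2 subunits of phosphorylase kinase, the muscle glycogen phosphorylase and the muscle fructose bisphosphatase fell, and 1 hexokinase rose. The muscle isozymes of glycolysis were lower in both transgenic libraries without passing the test singly. Differences were tested with limma on log2(RPKM + 1), with p-values adjusted over 10015 tested genes and a threshold of 0.05. Of the 36 genes, 34 were tested and 32 were at 1 RPKM or more in every library; Aldoc and Pgm1 were below the filter. Phkb, Phkg1, Pygm and Fbp2 fell, which is 4 of 34 or 11.8%, while 1.22% of all tested genes fell. Hk1 was the single gene of the group that rose, which is 2.94%, while 6.25% of all tested genes rose. The log2 fold change was negative for 25 of the 34 (73.5%) and for 39.0% of all tested genes. Both transgenic libraries lay below both controls for 22 of the 34, a pattern that 19.7% of all tested genes share, and above both for 4, a pattern that 38.4% share. The median log2 fold change was -0.48 over the 34 genes and 0.10 over all tested genes. At an adjusted p under 0.1, the same test counted 10 of the 34 lower, against 4.01% of all tested genes, and 2 higher, against 13.0%.

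**Figure D1:**
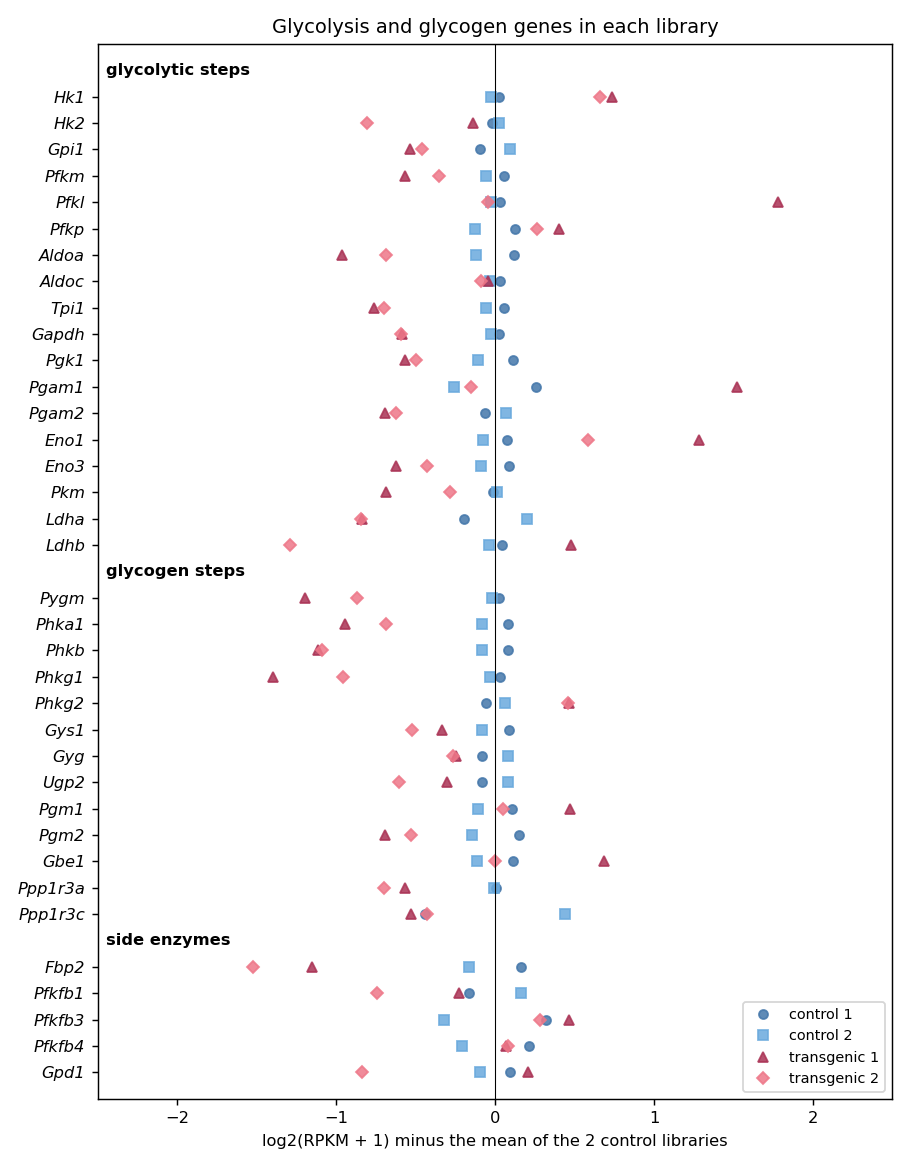
Level of each of the 36 genes in each library, as log2(RPKM + 1) minus the mean of the 2 control libraries; circles and squares are controls, triangles and diamonds transgenics, and symbols are those of the deposited table. Pygm, Phka1, Phkb and Phkg1 lie left of both controls in both transgenic libraries, while Hk1, Eno1 and Phkg2 lie right of them.

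Phosphorylase kinase, the enzyme that switches glycogen phosphorylase on, holds regulatory alpha and beta subunits and a catalytic gamma subunit. Phkb, which encodes the beta subunit, was at 65.2 and 58.0 RPKM in controls and at 27.8 and 28.4 RPKM in transgenics. The transgenic values lay within 1 RPKM of each other and below both controls. The mean fell 2.19-fold, from 61.6 ± 5.09 to 28.1 ± 0.384 RPKM (SD, n = 2), with a log2 fold change of -1.10 (SE 0.15, limma adjusted p = 0.0238). Phkg1, which encodes the gamma subunit of muscle, was at 139 and 133 RPKM in controls and at 51.2 and 69.7 RPKM in transgenics. Its groups did not overlap and its mean fell 2.25-fold, from 136 ± 4.23 to 60.4 ± 13.1 RPKM, with a log2 fold change of -1.18 (SE 0.20, limma adjusted p = 0.0369). Phka1, which encodes the muscle alpha subunit, was at 49.3 and 43.9 RPKM in controls and at 23.7 and 28.5 RPKM in transgenics. Its groups were also apart, but it missed the threshold, with a log2 fold change of -0.82 (SE 0.17, limma adjusted p = 0.0552). Phkg2, the gamma subunit best known from liver and testis, had far lower levels and the opposite order, with 1.81 and 2.05 RPKM in controls and 3.04 and 3.03 RPKM in transgenics; its log2 fold change of 0.46 did not pass (SE 0.14, limma adjusted p = 0.104).

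Pygm, the muscle glycogen phosphorylase that splits glucose phosphate from the chain ends of glycogen, was the most abundant glycogen gene per length. It was at 1296 and 1256 RPKM in controls and at 555 and 699 RPKM in transgenics. Both transgenic libraries lay far below both controls, and the mean fell 2.03-fold, from 1276 ± 28.2 to 627 ± 102 RPKM (SD, n = 2), with a log2 fold change of -1.03 (SE 0.20, limma adjusted p = 0.0472). Phosphoglucomutase, which turns the released glucose 1-phosphate into the 6-phosphate used by glycolysis, is listed under a symbol that has since been exchanged. The gene on chromosome 4 that the deposited table calls Pgm2, now named Pgm1, was at 320 and 261 RPKM in controls and at 179 and 200 RPKM in transgenics, with a log2 fold change of -0.61 (limma adjusted p = 0.115). The gene on chromosome 5 that the table calls Pgm1, now named Pgm2, was at 0.421 to 1.12 RPKM and was not tested.

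These 3 calls depend on single libraries and, for Pygm most of all, on other settings. Pygm was called in 3 of 12 alternatives and lost in 9, among them a pseudocount of 0.1 (limma adjusted p = 0.0535), the mean filter (0.0501), median-of-ratios scaling (0.0623) and library sizes without Thbs1 (0.0603). Phkb was called in 9 of the 12 and Phkg1 in 7. Without control library 1 the limma adjusted p was 0.0551 for Phkb, 0.0785 for Phkg1 and 0.0866 for Pygm, and without control library 2 it was 0.0834, 0.132 and 0.14. Without transgenic library 1 Phkb was still called (0.0365), and Phkg1 (0.0708) and Pygm (0.167) were not; without transgenic library 2 all 3 were called (0.0276, 0.0103 and 0.0452). Over 12 alternatives the adjusted p ran from 0.0131 to 0.0834 for Phkb, from 0.0103 to 0.132 for Phkg1 and from 0.0257 to 0.167 for Pygm, and the log2 fold changes from -1.31 to -0.91, from -1.40 to -0.96 and from -1.22 to -0.83. Phkg1 shares 630 exon bases, 9.68% of its own, with Sumf2 on the opposite strand, and with strandedness unstated in the labels, reads of both genes there cannot be told apart. Sumf2 was at 27.4 and 25.3 RPKM in controls and at 12.4 and 18.1 RPKM in transgenics, and did not pass (limma adjusted p = 0.092). Phkg2 shares 21.9% of its exon bases with Ccdc189 on the opposite strand.

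**Figure D2:**
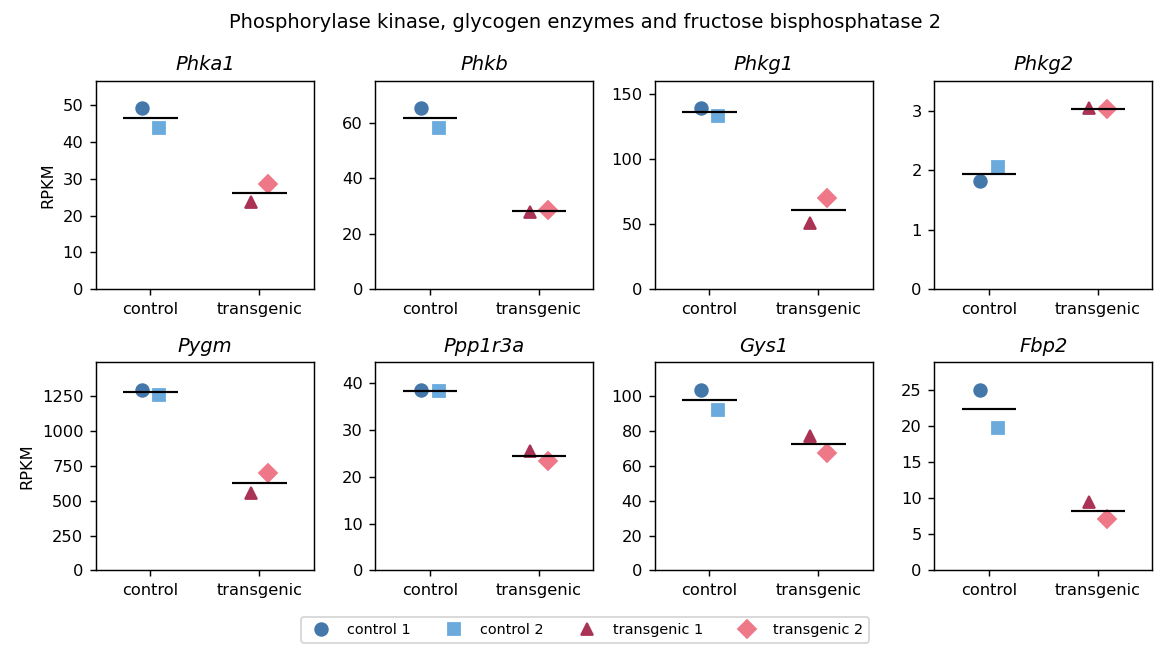
RPKM in each library for 4 phosphorylase kinase subunits, glycogen phosphorylase (Pygm), the muscle subunit that brings protein phosphatase 1 to glycogen (Ppp1r3a), glycogen synthase (Gys1) and fructose bisphosphatase 2 (Fbp2); points are libraries and the bar is the group mean, with each axis starting at 0. Phkb, Phkg1, Pygm and Fbp2 passed the test, and Phkg2 is the single panel in which transgenic libraries are higher.

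The promoters of the 4 genes that fell are shown because these members moved in one direction. Each run covers 250 bases before and 50 after the transcription start given by RefSeq (build GRCm38.p6), in the direction of transcription, and capitals mark E-boxes (CANNTG, the motif bound by MyoD and related factors, which reads the same on both strands). Pygm lies on chr19:6384158-6384457 (plus strand), Phkb on chr8:85840738-85841037 (plus strand), Phkg1 on chr5:129879039-129879338 (minus strand) and Fbp2 on chr13:62858351-62858650 (minus strand).
Pygm: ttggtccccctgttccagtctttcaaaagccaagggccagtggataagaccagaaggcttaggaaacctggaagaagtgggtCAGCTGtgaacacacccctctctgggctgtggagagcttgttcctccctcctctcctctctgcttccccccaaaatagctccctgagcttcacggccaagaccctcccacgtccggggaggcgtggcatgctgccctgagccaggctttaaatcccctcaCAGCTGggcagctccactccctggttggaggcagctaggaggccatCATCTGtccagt
Phkb: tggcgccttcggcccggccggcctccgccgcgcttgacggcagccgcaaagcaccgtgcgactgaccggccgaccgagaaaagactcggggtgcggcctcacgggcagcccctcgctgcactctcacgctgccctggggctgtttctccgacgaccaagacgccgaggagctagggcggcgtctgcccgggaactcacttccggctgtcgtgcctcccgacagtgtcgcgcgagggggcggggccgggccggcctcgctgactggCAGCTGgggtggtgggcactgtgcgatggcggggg
Phkg1: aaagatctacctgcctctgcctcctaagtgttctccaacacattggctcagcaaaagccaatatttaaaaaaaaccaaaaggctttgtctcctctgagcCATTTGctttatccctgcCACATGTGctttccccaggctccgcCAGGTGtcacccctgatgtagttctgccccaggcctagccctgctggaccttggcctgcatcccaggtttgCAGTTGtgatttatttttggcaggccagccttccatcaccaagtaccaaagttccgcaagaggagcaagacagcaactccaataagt
Fbp2: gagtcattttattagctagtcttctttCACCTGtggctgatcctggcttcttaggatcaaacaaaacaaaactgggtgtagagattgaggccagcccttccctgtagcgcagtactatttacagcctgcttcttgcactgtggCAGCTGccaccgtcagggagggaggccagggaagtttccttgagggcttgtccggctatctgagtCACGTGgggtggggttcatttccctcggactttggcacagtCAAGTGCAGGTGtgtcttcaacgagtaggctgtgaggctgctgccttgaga
These windows held 3 E-boxes for Pygm, 1 for Phkb, 5 for Phkg1, of which 2 overlap, and 5 for Fbp2. An E-box was present in 72.3% of all 32851 promoters of this length, 3 or more in 17.6% and 5 or more in 2.10%. The letters ACGTG, the core of the hypoxia response element, were searched on both strands and were found once in the Pygm window, not in those of Phkb and Phkg1, and at 2 places in that of Fbp2, both inside the E-box CACGTG. They were present in 19.6% of all promoters. TCAGGTT, the core of the MEF3 motif of muscle gene promoters, was in none of the 4 windows on either strand and in 4.07% of all promoters. Of the 36 genes, 35 matched the RefSeq promoters, with 51 promoters in all. Of these, 39 (76.5%) held an E-box, 21 (41.2%) held ACGTG and 1 (1.96%) held TCAGGTT. A match is a description of the letters and no evidence of binding.

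None of the members that make glycogen passed the test. Gyg, glycogenin, the protein primer on which glycogen starts, was at 103 and 115 RPKM in controls and at 91.3 and 90.3 RPKM in transgenics (log2 fold change -0.26, limma adjusted p = 0.361). Gys1, the muscle glycogen synthase, was at 104 and 92.2 RPKM in controls and at 77.4 and 67.7 RPKM in transgenics (-0.43, limma adjusted p = 0.18). Ugp2, which makes the UDP-glucose that the synthase adds, was at 109 and 123 RPKM against 93.6 and 75.6 RPKM (-0.45, limma adjusted p = 0.193). All 3 lay below both controls in both transgenic libraries on this scale. With library sizes that leave out the reads of Thbs1, Gyg overlapped between groups, at 103 and 115 RPKM in controls and 104 and 105 RPKM in transgenics (log2 fold change -0.055), while Gys1 and Ugp2 stayed apart (-0.23 and -0.25). Gbe1, the branching enzyme, overlapped between groups at 30.6 and 26.0 RPKM in controls and 46.0 and 28.2 RPKM in transgenics.

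Gys2, the liver form of glycogen synthase and no member, rose. It was at 0.983 and 0.501 RPKM in controls and at 6.52 and 9.31 RPKM in transgenics, with a log2 fold change of 2.35 (limma adjusted p = 0.0127). It passed the filter on low values through the transgenic libraries, and per length it stayed well below Gys1. The remaining members here encode subunits that bring protein phosphatase 1 to glycogen. Ppp1r3a, the muscle subunit, was at 38.6 and 38.2 RPKM in controls and at 25.6 and 23.3 RPKM in transgenics; both groups were tight and apart, and it did not pass (log2 fold change -0.63, SE 0.15, limma adjusted p = 0.068). Ppp1r3c was at 83.0 and 154 RPKM in controls and at 77.8 and 83.7 RPKM in transgenics, so that control library 2 alone stood high (limma adjusted p = 0.384). In all, 13 glycogen genes summed to 2340 and 2302 RPKM in controls and to 1253 and 1398 RPKM in transgenics, which is 0.936% and 0.855% against 0.513% and 0.584% of all RPKM. Of the 12 tested, 3 fell and 0 rose, against 1.22% and 6.25% of all tested genes. The groups were apart in the lower direction for 9 and in the higher direction for 1, against 19.7% and 38.4%. The median log2 fold change of the 12 was -0.55, against 0.10 over all tested genes. With library sizes without Thbs1 that median was -0.34, against 0.26 over all tested genes.

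In glycolysis, 12 of 17 tested genes had a negative log2 fold change, a direction that 39.0% of all tested genes had. None of the 17 fell past the threshold and 1 rose, against 1.22% and 6.25% of all tested genes. The median was -0.49, and with library sizes without Thbs1 it was -0.28. The 18 genes summed to 12769 and 12225 RPKM in controls and to 7945 and 8295 RPKM in transgenics, or 5.11% and 4.54% against 3.25% and 3.47% of all RPKM. The groups were apart in the lower direction for 11 of the 17, against 19.7% of all tested genes. They were apart in the higher direction for 3, against 38.4%.

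Glucose enters the pathway through hexokinase. Hk2, the insulin-regulated hexokinase of muscle, was at 61.5 and 63.4 RPKM in controls and at 56.7 and 35.4 RPKM in transgenics, low in transgenic library 2 (log2 fold change -0.47, limma adjusted p = 0.297). Hk1, the hexokinase of most tissues, was at 1.11 and 1.04 RPKM in controls and at 2.46 and 2.28 RPKM in transgenics, backed by 299, 271, 683 and 627 reads. It rose 2.20-fold, from 1.08 ± 0.0523 to 2.37 ± 0.123 RPKM (SD, n = 2), with a log2 fold change of 0.70 (SE 0.13, limma adjusted p = 0.0453). Its call is close to the threshold: it was lost without control library 1 (0.0784), control library 2 (0.153), transgenic library 1 (0.163) or transgenic library 2 (0.118), and over 12 alternatives it was called in 3, with an adjusted p from 0.0222 to 0.163. The log2 fold change of Hk1 stayed between 0.59 and 1.14 in these alternatives. Gpi1, the isomerase that follows, was at 216 and 247 RPKM against 159 and 168 RPKM (limma adjusted p = 0.138).

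Phosphofructokinase commits the sugar to glycolysis. Pfkm, its muscle form, was at 262 and 241 RPKM in controls and at 169 and 196 RPKM in transgenics (log2 fold change -0.46, limma adjusted p = 0.17). Pfkl, the liver form, was near 1.7 RPKM in 3 libraries (1.77, 1.67 and 1.63) and at 8.33 RPKM in transgenic library 1 alone. Pfkp, the platelet form, was at 1.37 and 0.989 RPKM against 1.87 and 1.61 RPKM, with groups apart and no call (limma adjusted p = 0.245). Aldoa, the aldolase of muscle that splits the sugar into trioses, was at 2130 and 1807 RPKM in controls and at 1007 and 1217 RPKM in transgenics (log2 fold change -0.83, SE 0.21, limma adjusted p = 0.0805). Aldoc, the brain aldolase, was at 0.0902 to 0.184 RPKM and was not tested. Tpi1, which interconverts the trioses, was at 1634 and 1514 RPKM against 926 and 967 RPKM (-0.73, limma adjusted p = 0.0758). Both transgenic libraries lay well below both controls for Aldoa and Tpi1, whose adjusted p missed the threshold.

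The second stage of glycolysis yields ATP. Gapdh, often used as a reference gene, was the most abundant of the 36 genes per length. It was at 3625 and 3489 RPKM in controls and at 2368 and 2358 RPKM in transgenics, so the groups were apart while the test did not call it (log2 fold change -0.59, SE 0.19, limma adjusted p = 0.122). Pgk1, the first ATP-yielding kinase, was at 577 and 495 RPKM against 361 and 379 RPKM (-0.53, limma adjusted p = 0.138). Pgam2, the muscle phosphoglycerate mutase, was at 1669 and 1831 RPKM against 1082 and 1132 RPKM (-0.66, limma adjusted p = 0.0944). Pgam1, the mutase of most other tissues, overlapped between groups, at 11.4 and 7.69 RPKM in controls and at 28.8 and 8.35 RPKM in transgenics. Only transgenic library 1 was high for it.

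Eno3, the muscle enolase, was at 1398 and 1234 RPKM in controls and at 852 and 975 RPKM in transgenics (log2 fold change -0.53, limma adjusted p = 0.16). Eno1, the enolase of most tissues, had the opposite order, at 31.0 and 27.9 RPKM in controls and at 73.1 and 44.5 RPKM in transgenics (0.93, SE 0.26, limma adjusted p = 0.096). Pkm, pyruvate kinase, was at 625 and 635 RPKM against 391 and 516 RPKM (-0.49, limma adjusted p = 0.208). Ldha, the lactate dehydrogenase subunit that predominates in fast muscle, was at 354 and 466 RPKM against 226 in both transgenic libraries (-0.84, SE 0.20, limma adjusted p = 0.0712). Ldhb, the subunit of heart and oxidative fibres, had no common direction, at 172 and 162 RPKM in controls and at 233 and 67.8 RPKM in transgenics (limma adjusted p = 0.687). The annotation names pseudogenes for Aldoa (2), Gapdh (2), Pgk1 (3), Pgam1 (2) and Ldha (2), and the sources used here do not say how reads shared with such copies were counted.

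The 12 muscle isozymes and the 9 tested isozymes listed as widely expressed or of other tissues lay on opposite sides of 0 with 1 exception. Pfkfb3 and Pfkfb4 of the second group have no counterpart among the 12. All 12 muscle isozymes (Hk2, Pfkm, Aldoa, Pgam2, Eno3, Ldha, Pygm, Phka1, Phkg1, Gys1, Fbp2 and Ppp1r3a) were lower in both transgenic libraries than in both controls, as were 19.7% of all tested genes. Of these, 3 fell past the threshold, against 1.22% of all tested genes, the log2 fold changes ran from -1.34 to -0.43 and the median was -0.74. Of 9 tested isozymes of other tissues (Hk1, Pfkl, Pfkp, Pgam1, Eno1, Ldhb, Phkg2, Pfkfb3 and Pfkfb4), 8 had a positive log2 fold change and Ldhb had a negative one. A positive value was the more common one, held by 6114 of all 10015 tested genes. In this second group 1 rose, against 6.25% of all tested genes, 4 had groups apart in the higher direction, against 38.4%, and the median was 0.46. The median over all tested genes was 0.10. A negative log2 fold change was not particular to the muscle isozymes. Tested members in neither group were also negative apart from Gbe1 (0.34), among them Phkb (-1.10), Tpi1 (-0.73) and Gapdh (-0.59). The fast fibre list had a median of -0.71, with 11 of its 12 genes negative and Myh1 positive (0.49).

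The order of the groups did not turn under other scalings of the libraries, although single genes of the second group did. With median-of-ratios scaling, which moves the median of all tested genes to -0.04, the medians were -0.92 for the muscle isozymes and 0.33 for the others, and Pfkfb4 turned negative (-0.10). With library sizes that leave out the reads of Thbs1, which moves that median to 0.26, the muscle isozymes had a median of -0.54 and all 12 stayed negative. On that scale 11 of the 12 had groups apart in the lower direction and Hk2 overlapped, and of the 34 tested members 19 were apart in the lower and 8 in the higher direction, against 11.0% and 55.3% of all tested genes. Without transgenic library 1 the second group had 8 tested members, 3 of them negative, and a median of 0.17.

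**Figure D3:**
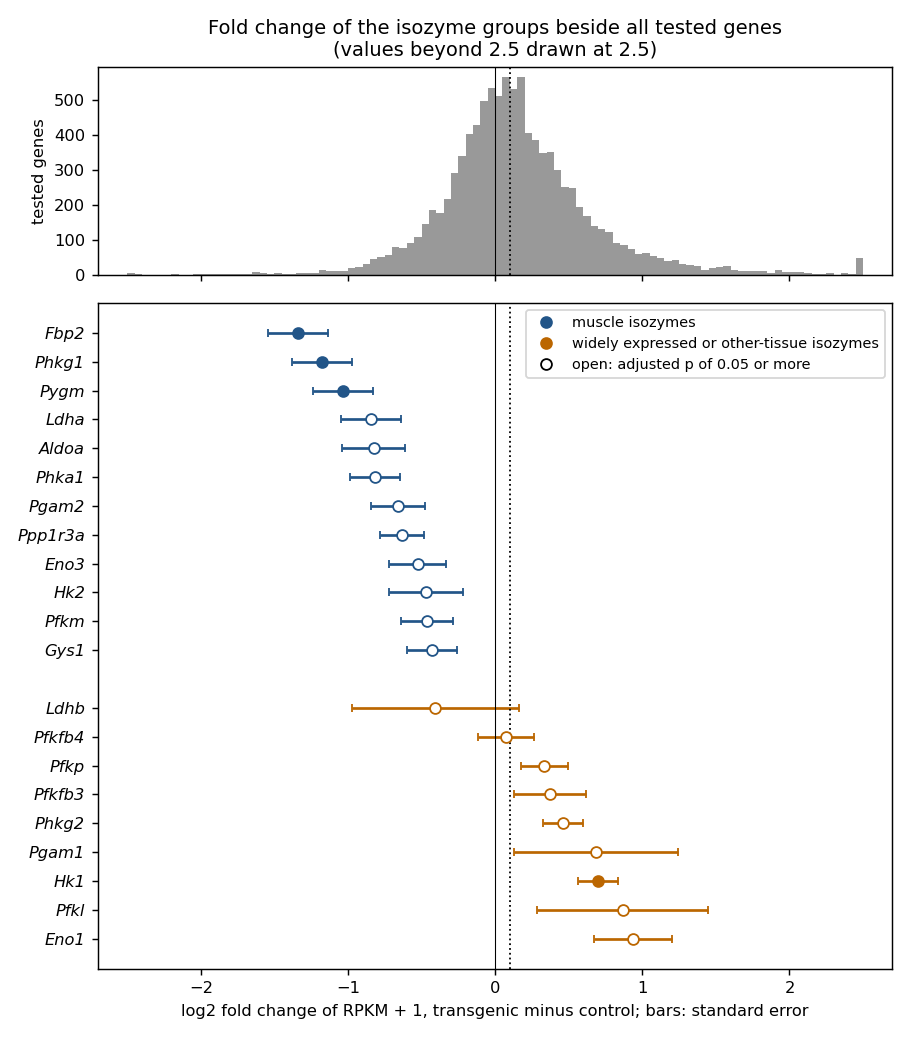
Log2 fold change on the log2(RPKM + 1) scale, transgenic minus control, for 12 muscle isozymes (blue) and 9 isozymes of other tissues (orange), with bars for the standard error, filled points past the adjusted threshold, and above them the distribution over 10015 tested genes with its median dotted at 0.10. Every muscle isozyme lies left of 0, from -1.34 to -0.43, and 8 of the 9 others lie right of it.

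Paired isozymes were also set against each other within each library, as log2 ratios of (RPKM + 1) of the first over its counterpart. The first is a muscle isozyme of the group above, except in the pair of Pfkfb1 and Pfkfb3. The added 1 means that the read total does not fully cancel where the counterpart is low. In 10 of 11 pairs both transgenic libraries had a lower ratio than both controls on this scale. With plain RPKM ratios, in which the read total cancels, it was 9 of 11: the ratios of Aldoa to Aldoc, a gene at 0.0902 to 0.184 RPKM, then overlapped, at 11547 and 13582 in controls and at 8067 and 13484 in transgenics. With 2 libraries against 2, an exact two-sided permutation test cannot go below p = 0.333, and adjusted over the 11 pairs these p-values are 0.367, so no pair can pass. These pairs reuse genes of the groups above, and Pfkm enters against both Pfkl and Pfkp. How often other gene pairs show this order was not counted. The largest difference was that of Phkg1 to Phkg2, at -1.64. Phkg2 made up 1.28% and 1.52% of the summed RPKM of both gamma subunits in controls and 5.62% and 4.16% in transgenics. Eno1 made up 2.17% and 2.21% of both enolases in controls and 7.90% and 4.37% in transgenics, with a difference in log2 ratio of -1.46. Hk1 made up 1.78% and 1.61% of Hk1 and Hk2 in controls and 4.15% and 6.06% in transgenics, with a difference of -1.17. In all these pairs the muscle isozyme remained the main form in every library.

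Other pairs depended on transgenic library 1. Pfkl was 0.672% and 0.685% of Pfkm and Pfkl in controls and 4.69% and 0.824% in transgenics, and the difference in log2 ratio went from -1.33 to -0.31 without that library and to -2.35 without transgenic library 2. Pgam1 was 0.678% and 0.418% of both mutases in controls and 2.60% and 0.732% in transgenics, and the difference went from -1.35 to -0.48 and -2.22 in the same way. Pygb, the brain phosphorylase, was 0.289% and 0.214% of Pygm and Pygb in controls and 1.04% and 0.473% in transgenics, with a difference of -1.41 that became -0.91. The ratios of Pfkm to Pfkp, Aldoa to Aldoc, Phka1 to Phka2 and Pfkfb1 to Pfkfb3 differed by -0.80, -0.76, -0.995 and -0.86. The last of these depended on the controls, at -1.34 without control library 1 and -0.38 without control library 2. Phka2 was at 0.156 to 0.462 RPKM, below the filter, and the log2 fold change of Phka1 alone was -0.82. The pair of Ldha and Ldhb was the exception, with overlapping groups (exact permutation p = 1) and Ldhb shares of 32.7% and 25.8% in controls and 50.7% and 23.1% in transgenics. Its difference was -0.44 and turned to 0.44 without transgenic library 1.

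**Figure D4:**
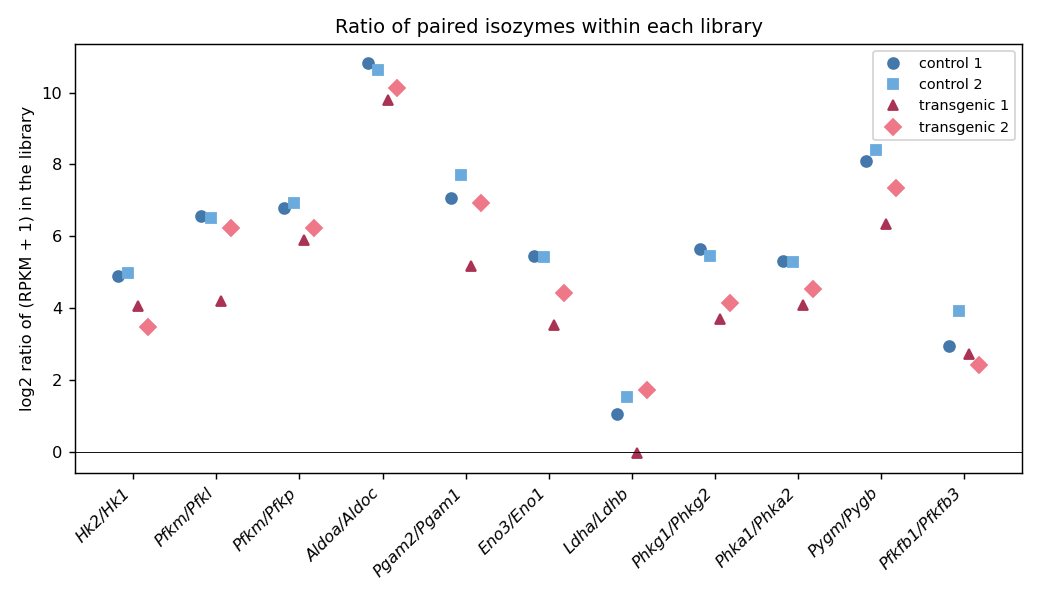
Log2 ratio of (RPKM + 1) of the first isozyme named over the second in each library for 11 pairs. The first is a muscle isozyme except in Pfkfb1/Pfkfb3. Circles and squares are controls, triangles and diamonds transgenics. The transgenic libraries overlap the controls for Ldha/Ldhb and lie below both in the other 10 pairs, which for Aldoa/Aldoc holds with the added 1 and not for plain RPKM ratios.

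Among the 5 genes beside the main route, Fbp2 fell. Fbp2 encodes the muscle fructose bisphosphatase, which runs the phosphofructokinase step backwards and takes part in making glycogen from lactate. It was at 25.0 and 19.7 RPKM in controls and at 9.43 and 7.06 RPKM in transgenics. The groups were far apart, and the mean fell 2.71-fold, from 22.4 ± 3.75 to 8.24 ± 1.67 RPKM (SD, n = 2), with a log2 fold change of -1.34 (SE 0.21, limma adjusted p = 0.0298), the largest fall among the 36 genes. The call was lost without control library 1 (0.0656) or control library 2 (0.088) and was kept without either transgenic library (0.00772 and 0.0228); over 12 alternatives the adjusted p ran from 0.00772 to 0.088.

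The PFKFB enzymes set the level of fructose 2,6-bisphosphate, the activator of phosphofructokinase. Pfkfb1 was at 14.8 and 18.8 RPKM in controls and at 14.1 and 9.57 RPKM in transgenics, apart by a narrow margin and not called (limma adjusted p = 0.249). Pfkfb3 was at 1.06 and 0.316 RPKM against 1.27 and 0.998 RPKM, and Pfkfb4 at 15.2 and 11.1 RPKM against 13.7 and 13.8 RPKM; both overlapped between groups. Gpd1, which links glycolysis to glycerol phosphate and to the shuttle of reducing equivalents, was at 267 and 235 RPKM in controls and at 290 and 140 RPKM in transgenics. It had no common direction (limma adjusted p = 0.625).

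Some members differed between the transgenic libraries and are set beside the marker lists on which those libraries stood apart. Pfkl, Pgam1 and Gbe1 were high in transgenic library 1 alone, where 6 of 6 adipocyte markers were also highest, among them Adipoq at 31.7 RPKM against 2.74 to 3.21 RPKM elsewhere and Plin1 at 9.86 RPKM against 0.562 to 0.625 RPKM. Without that library the log2 fold changes were -0.046 for Pfkl, -0.15 for Pgam1 and -0.00083 for Gbe1. Pygl, the liver phosphorylase, and Ppp1r3b, both below the filter in the other 3 libraries, reached 17.2 and 6.43 RPKM there. Ldhb, Gpd1 and Hk2 were lowest in transgenic library 2, where Myh7, the slow myosin heavy chain, was at 1.14 RPKM against 66.6 to 71.1 RPKM elsewhere. Without that library the log2 fold changes turned to 0.48 for Ldhb and 0.21 for Gpd1. Both of these genes were also highest in transgenic library 1, at 233 and 290 RPKM. The part of fat or of slow fibres in these values was not tested. None of these 6 genes passed the test. Phkb and Fbp2 stayed called without either transgenic library, as given above. The summed fast fibre list went from 44420 and 51233 RPKM in controls to 25006 and 32110 RPKM in transgenics, with 1 of 12 genes past the test, Atp2a1, the fast calcium pump (log2 fold change -1.19, limma adjusted p = 0.0458), whose adjusted p without 1 library ran from 0.0389 to 0.173 and over 12 alternatives from 0.0221 to 0.229. The log2 fold change was negative for 11 of these 12 genes. Myh1, a fast myosin heavy chain, went the other way with groups apart, from 803 and 839 RPKM in controls to 1064 and 1249 RPKM in transgenics. It did not pass (log2 fold change 0.49, limma adjusted p = 0.175). The part of fast fibre content in the levels of the muscle isozymes was not tested either.

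**Figure D5:**
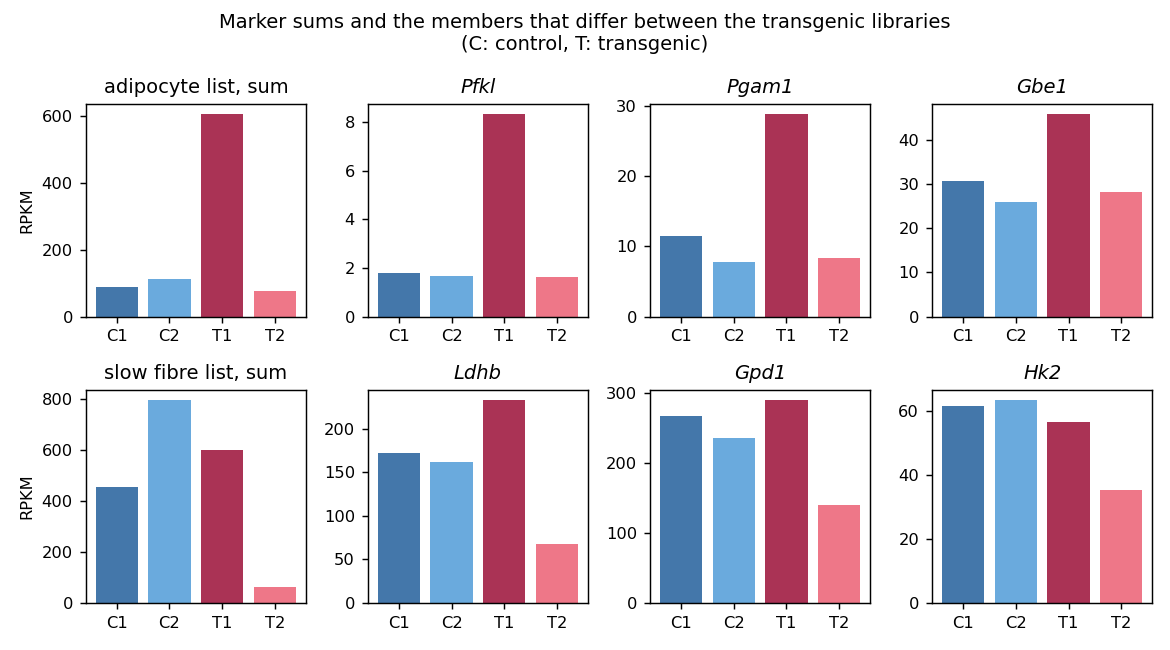
RPKM in each library, on axes that start at 0, of the summed adipocyte list with Pfkl, Pgam1 and Gbe1 (upper row) and of the summed slow fibre list with Ldhb, Gpd1 and Hk2 (lower row); C1 and C2 are controls, T1 and T2 transgenics. The upper row is highest in T1 in every panel and the lower row is lowest in T2 in every panel.

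In the wider pathway, glycolytic genes outside the 36 had 11 of 16 tested, of which 5 fell and 0 rose, with a median log2 fold change of 0.033. Bpgm, which makes 2,3-bisphosphoglycerate, went from 34.0 and 32.4 RPKM to 17.6 and 17.2 RPKM (log2 fold change -0.89, limma adjusted p = 0.0316). Tigar, a fructose bisphosphatase listed as 9630033F20Rik, went from 19.2 and 20.1 RPKM to 10.9 and 8.67 RPKM (-0.94, limma adjusted p = 0.0391). Pgm2l1, a glucose 1,6-bisphosphate synthase, went from 2.73 and 2.83 RPKM to 1.13 and 1.24 RPKM (-0.79, limma adjusted p = 0.0347). Among 17 tested genes of 22 further glycogen enzymes and regulators, 1 rose, Gys2 as given above, and 1 fell, and the median was -0.20.

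Of 11 tested genes of glucose and lactate transport, 2 fell and 0 rose, with a median of -0.51. Slc16a3, the lactate exporter of fast fibres, went from 25.6 and 32.2 RPKM to 13.7 and 12.8 RPKM (log2 fold change -1.06, limma adjusted p = 0.0326). Tbc1d1, which restrains the traffic of glucose transporters to the fibre surface, went from 13.0 and 13.9 RPKM to 7.26 and 6.75 RPKM (-0.85, limma adjusted p = 0.0344). Slc2a4, the insulin-responsive transporter, had a log2 fold change of -0.66 (limma adjusted p = 0.121), and Slc2a1, the transporter of most tissues, one of 0.71 (limma adjusted p = 0.0803); neither passed. Of 12 genes of the pyruvate dehydrogenase complex and its regulators, 1 rose, Pdk3, an inhibitory kinase, from 0.444 and 0.196 RPKM to 1.84 and 1.54 RPKM (1.03, limma adjusted p = 0.0305), and it passed the filter through the transgenics.

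The calls in the wider pathway lists depend on the libraries used, as those of the members do. In the lists of other glycolytic, glycogen, transport, pyruvate dehydrogenase, phosphate-buffering, regulator and fast fibre genes, 14 genes were called. Of these, 5 of the 13 still tested kept their call without control library 1 and 0 of 13 without control library 2. Without transgenic library 1 it was 5 of 12, and without transgenic library 2 it was 4 of 12. With no filter 0 of 14 were called, with a pseudocount of 0.1 10, and with limma-voom on the recovered reads 14.

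The authors' deposited table holds a p-value and an adjusted p-value of their own for each gene. In the authors' deposited table, 13 of the 36 genes were lower and 1 higher in transgenics at an adjusted p under 0.05, while 2.55% of its 17769 genes with reads were lower and 4.34% higher. At an adjusted p under 0.1 the authors' deposited table had 20 lower and 1 higher, against 3.64% and 5.55%. The limma test at the same thresholds gave 4 lower and 1 higher, and 10 lower and 2 higher. The 2 sets of counts differ in scale: the authors' base means use size factors equal to the median-of-ratios factors, and limma used RPKM. At an adjusted p under 0.05, limma-voom with those factors gave 9 lower and 1 higher. The part of scaling in the difference between the counts was not tested.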

How the data were processed

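RNA from quadriceps was sequenced in 2 control and 2 transgenic libraries, with groups taken from the sample titles. Per the submitters' processing notes, the tools were bcl2fastq, TopHat and edgeR, without versions, and the build was mm10. The values the authors deposited per library are RPKM. The authors' base means are signal values, means of reads over a size factor per library, and the deposited table also holds a p-value and an adjusted p-value per gene; the tool behind these is not settled here. RPKM and base means together gave whole reads for every value (tolerance 0.0001, largest deviation 1.63e-09). A list of genes deposited with an adjusted p-value under 0.1 repeats 1634 rows and was not used.

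The 10015 genes that reached 1 RPKM in 2 or more libraries entered limma (version 3.58.1, R version 4.3.3). Their log2(RPKM + 1) values were fitted with a trended prior variance, two-sided, without covariates, at a Benjamini-Hochberg adjusted p threshold of 0.05. A log2 fold change is transgenic minus control on that scale, which understates the change of low genes, and folds in RPKM are ratios of group means. A gene below the filter in 1 group entered through the other, which favours a change. Isozyme ratios were compared with exact permutation tests. Alternatives were a pseudocount of 0.1, no filter, a filter on the mean, other scalings, limma-voom on the recovered reads, each library left out, the replicate number as a block and a threshold of 0.1. limma-voom with median-of-ratios factors was added after seeing the data. The test was tried on simulated data.

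The members and lists were chosen with earlier results of these data known. The text names each member, Thbs1, up to 4 called genes of each other list by smallest p, and members of lists with 5 or fewer tested. Sumf2, Slc2a1, Slc2a4, Pygl, Pygb, Phka2, Ppp1r3b, Myh7, Myh1, Adipoq and Plin1 were chosen after their values were seen. So were the genes of the closing section. Called markers of other cell types are given as counts, and some genes that the rule takes are not reported here. Coordinates and overlaps are from GENCODE M21 (GRCm38, which is mm10). Tables and figures were made in Python (3.11.15) with pandas (2.3.3), numpy (2.4.6) and matplotlib (3.10.9). The libraries of a group differed by more than sampling noise (chi-square per degree of freedom 50.0 and 67.2).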

Additional observations from a re-analysis of the deposited data

How the results depend on the processing

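The count of members that fell (4) was 0 with no filter, 8 with limma-voom, 9 with limma-voom and median-of-ratios factors, 10 at a threshold of 0.1, and 0 to 4 with a library left out. The count that rose (1) was 0 with a pseudocount of 0.1, no filter, the mean filter or median-of-ratios scaling, 3 with library sizes without Thbs1, 2 at a threshold of 0.1, and 0 to 3 with a library left out. Of all genes, 626 rose and 122 fell; the counts were 135 and 11 with no filter, 491 and 244 with median-of-ratios scaling, 1303 and 402 at a threshold of 0.1, and 1 to 583 and 0 to 156 with a library left out. With library sizes without Thbs1, 1486 rose, and with limma-voom and median-of-ratios factors 469 fell. The replicate number as a block gave 2 members lower and 0 higher. It gave 64 of all genes lower and kept 6 of the 14 calls in the other lists. Same-numbered libraries correlated at 0.0742 in their deviations from the group means and share only a number. Why calls were lost with the block was not tested. With 1 library left out, directions turned for Pfkl (-0.046 to 1.78), Pgam1 (-0.15 to 1.52), Gbe1 (-0.00083 to 0.68) and the log2 ratio of Ldha to Ldhb (-1.32 to 0.44) without transgenic library 1, for Ldhb (-1.29 to 0.48) and Gpd1 (-0.84 to 0.21) without transgenic library 2, and for Pfkfb4 (-0.13 to 0.29) without control library 2. Pfkfb4 also turned with median-of-ratios scaling (-0.0959) and with limma-voom and those factors (-0.102). The cause was not tested.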

Other observations

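Genes that sense the energy state of the fibre or buffer its ATP held 3 calls. Prkab2, the muscle beta subunit of AMP-activated kinase, was at 61.3 and 66.0 RPKM in controls and at 26.2 and 30.1 RPKM in transgenics and fell (log2 fold change -1.15, limma adjusted p = 0.0236, kept in 10 of 12 alternatives with a range of 0.0153 to 0.102). It was the single call among 21 tested regulators and energy sensors, whose median was -0.16. Prkaa2, the catalytic subunit that predominates in muscle, had a log2 fold change of -0.69 (limma adjusted p = 0.0636), while Prkab1 and Prkaa1, the forms of most tissues, had 0.50 and 0.50 (limma adjusted p = 0.097 and 0.0898). None of these 3 passed. The gamma subunits Prkag1, Prkag2 and Prkag3 overlapped between groups and did not pass, with log2 fold changes of 0.031, 0.23 and -0.16. Prkag3 was at 42.3 and 32.3 RPKM in controls and at 24.7 and 44.1 RPKM in transgenics.

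Among 7 genes of phosphate buffering, Ckb, the brain creatine kinase, rose from 5.28 and 3.16 RPKM to 11.3 and 10.1 RPKM (log2 fold change 1.19, limma adjusted p = 0.047, kept in 7 of 12 alternatives with a range of 0.0227 to 0.124). Ampd3, the AMP deaminase of red cells and other tissues, rose from 1.17 and 1.09 RPKM to 2.97 and 2.48 RPKM (0.80, limma adjusted p = 0.0402, kept in 6 of 12 alternatives with a range of 0.0205 to 0.144). Their muscle counterparts did not pass: Ckm was at 7607 and 7662 RPKM in controls and 4389 and 4345 RPKM in transgenics (-0.81, limma adjusted p = 0.0748), and Ampd1 at 213 and 204 RPKM against 103 and 140 RPKM (-0.79, limma adjusted p = 0.0844).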
